A study of Mus musculus with 6 samples.

Results

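Hif3a, the gene of hypoxia-inducible factor 3 alpha, is described here through 1 of the 90752 probes of a mouse lncRNA and mRNA array. The array was hybridized with hippocampal RNA of diabetic db/db mice. The probe was taken by the symbol that the study's own list of changed probes gives it. Since that list was drawn up on the same arrays, the levels of Hif3a are described here and not tested. On the arrays as labelled, Hif3a did not separate the treated from the untreated mice: its log2 signal was 6.11 ± 0.64 (SD, n = 3) in db/db-vehicle and 5.91 ± 0.71 (SD, n = 3) in db/db-DMDD. The difference between groups was smaller than the spread within each of them.

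All 6 arrays came from male db/db mice aged 14 weeks, a strain whose defective leptin receptor leads to obesity and type 2 diabetes. The db/db-vehicle mice received 1% Tween 80 by stomach tube, and the db/db-DMDD mice received 50 mg/kg per day of DMDD for 28 days. DMDD is a benzoquinone with a dodecyl and a methoxy group that is obtained from roots of Averrhoa carambola, the star fruit tree. Memory was tested in these mice before the hippocampus was taken, and total RNA of each mouse was labelled with 1 dye on its own array. No lean mice are among the arrays, so the level of Hif3a in diabetic against non-diabetic hippocampus is not analysed here. In RNA of a whole tissue, fewer cells of a type and less RNA per cell cannot be told apart.

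Hypoxia-inducible factors are transcription factors made of an alpha subunit and the shared partner Arnt. When oxygen is plentiful, prolyl hydroxylases mark the alpha subunits for destruction through the Vhl ubiquitin ligase, and when oxygen is scarce the subunits build up and switch on genes of glycolysis, blood vessel growth and red cell production. Hif3a is the least studied of the alpha subunits. It is spliced into several forms, among them the inhibitory PAS domain protein IPAS, which binds the other alpha subunits and holds back their activity. Hif3a mRNA itself is known to rise in hypoxic tissue, the brain included.

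In the RefSeq annotation of GRCm38.p6, Hif3a (gene identifier 53417) lies on chromosome 7 between the protein-coding genes Ppp5c and Psg16. Its synonyms there include Ipas and NEPAS, and it has 3 transcripts, 2 of them curated and 1 predicted. The probe taken for it is an oligonucleotide of 60 bases, named MOUSELNCRNA_68291, whose sequence is shown because every Hif3a value below comes from it. Whether the array held other probes for Hif3a was not determined, since gene names came from the study's list only. The capitals mark its last 17 bases, at positions 44 to 60 from the 5′ end, the longest run that the oligonucleotide shared with any other probe on either strand.
MOUSELNCRNA_68291: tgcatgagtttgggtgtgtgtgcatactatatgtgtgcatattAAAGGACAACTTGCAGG
No other probe had the same sequence. The shared run occurred in 1 other probe, MOUSELNCRNA_14133, on the opposite strand, and on the same strand no run longer than 14 bases was shared. The log2 signal of MOUSELNCRNA_14133 lay between 5.36 and 6.13 over the 6 arrays and had a Pearson r of 0.41 with that of Hif3a. The oligonucleotide was 41.7% G and C, equal to the median of all probes. Neither the exon it lies in nor the splice forms it detects were determined, because no transcript sequence was used here.

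Each probe value rests on spots, small printed areas whose brightness the scanner reads. The Hif3a oligonucleotide was printed at 2 places of every array, and all 12 spots were marked as well above background by the Feature Extraction software, with 0 saturated and 0 marked as outliers. The processed signal, which is the brightness after background subtraction on a linear scale, is given here for the first and then the second spot. It was 82.6 and 81.7 in db/db-vehicle 1, 104.0 and 90.0 in db/db-vehicle 2, and 52.1 and 40.0 in db/db-vehicle 3. In the db/db-DMDD arrays it was 117.1 and 104.0 in replicate 1, 48.5 and 41.3 in replicate 2, and 37.4 and 42.3 in replicate 3. Both spots thus placed db/db-vehicle 1, db/db-vehicle 2 and db/db-DMDD 1 above db/db-vehicle 3, db/db-DMDD 2 and db/db-DMDD 3.

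**Figure D1:**
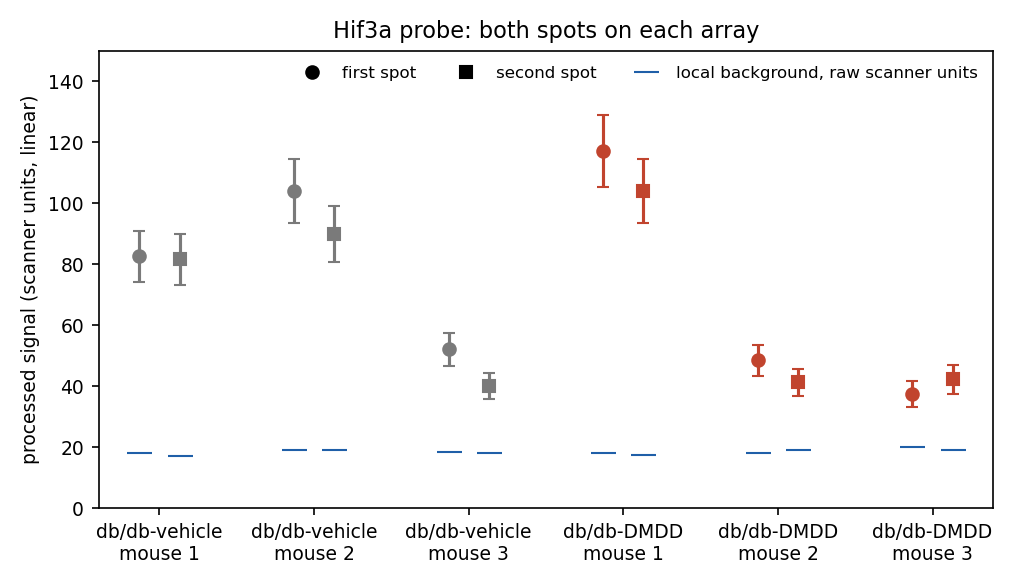
Processed signal of both Hif3a spots (vertical axis, linear scanner units) on each of the 6 arrays, with the error that Feature Extraction gives each spot as bars and the raw local background as blue dashes. The lowest of the 6 spots on db/db-vehicle 1, db/db-vehicle 2 and db/db-DMDD 1 is at 81.7 and the highest of the 6 on the other arrays at 52.1, while the background stays between 17 and 20.

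The errors of the single spots were small against these differences. Feature Extraction gave each spot an error of 10.1% to 11.2% of its signal. The raw brightness of the Hif3a spots was 6.37 to 8.74 times the local background on the bright arrays db/db-vehicle 1, db/db-vehicle 2 and db/db-DMDD 1, and 3.37 to 4.72 times on the other arrays. The local background was 17 to 19 around the spots of the bright arrays and 18 to 20 around those of the dim ones. The surface that Feature Extraction fitted across each array for detrending lay higher at these spots, at 24.5 to 29.9. Ratios to that surface would be smaller than those to the local background.

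After quantile normalization, which gives all arrays the same distribution of signals, the spots of 1 array differed by 0.015 to 0.40 on the log2 scale, with a median of 0.19. The difference was largest in db/db-vehicle 3 and smallest in db/db-vehicle 1. For other probes of similar mean signal (within 0.5 on the log2 scale), spotted 2 times, the median difference between spots was 0.15, against a mean over arrays of 0.20 for Hif3a. The other spots printed around the Hif3a spots, within 10 rows and columns, had a median deviation from their own means of -0.079 to 0.087 on any array. The Hif3a spots themselves deviated from their means by -0.83 to 0.71. Whether their place on the slide had a part in this was not tested.

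The normalized log2 signals of Hif3a, averaged over its spots, were 6.48, 6.49 and 5.37 in the vehicle arrays 1, 2 and 3, and 6.70, 5.68 and 5.34 in the DMDD arrays 1, 2 and 3. Each group held both high and low arrays, and the highest and the lowest of all 6 were both db/db-DMDD. Of the 9 pairs of a db/db-DMDD and a db/db-vehicle array, the db/db-DMDD array was lower in 5. From db/db-DMDD 1 to db/db-DMDD 3 the signal fell 2.57-fold, which is the whole range of the gene over the arrays.

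**Figure D2:**
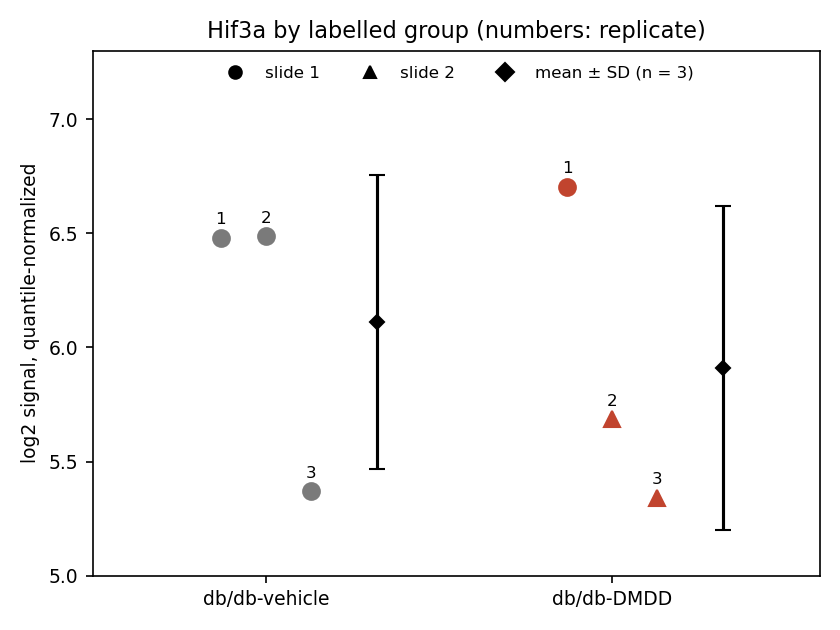
Normalized log2 signal of Hif3a (vertical axis) by labelled group, with 1 point per array, its replicate number above it and its shape giving the slide, and the mean ± SD (n = 3) as diamonds. The groups overlap: db/db-vehicle runs from 5.37 to 6.49 and db/db-DMDD from 5.34 to 6.70.

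Ordered by level, db/db-DMDD 1 was followed by db/db-vehicle 2, db/db-vehicle 1, db/db-DMDD 2, db/db-vehicle 3 and db/db-DMDD 3. The gap between db/db-vehicle 2 and db/db-vehicle 1 was 0.0060 and that between db/db-vehicle 3 and db/db-DMDD 3 was 0.029, and in both pairs the spots overlapped, so these neighbours did not differ beyond the spread of their spots. The widest gap, 0.80, lay between db/db-vehicle 1 and db/db-DMDD 2 and exceeded the difference between spots on each of the 6 arrays. The gap between db/db-DMDD 1 and db/db-vehicle 2 was 0.22 and that between db/db-DMDD 2 and db/db-vehicle 3 was 0.31. In these pairs the normalized spots did not overlap, but only narrowly, with 5.5704 in db/db-DMDD 2 against 5.5694 in db/db-vehicle 3. Before normalization the spots of both pairs overlapped.

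Hif3a was among the more variable probes of the array. It was taken from a list of probes that differed between these same arrays, which favours a large spread. Its rank is therefore a description only. Its SD over the 6 arrays was 0.62 on the log2 scale, against a median of 0.16 over the 67732 probes tested, which are those that 3 or more of the 6 arrays marked as well above background. Among the 8297 tested probes with a similar mean signal the median SD was 0.17, and 150 of them (1.81%), with Hif3a counted, had an SD at least as large as that of Hif3a. Most of this spread lay within the labelled groups: the pooled SD within groups was 0.68 for Hif3a and 0.17 at the median of the probes of similar signal.

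**Figure D3:**
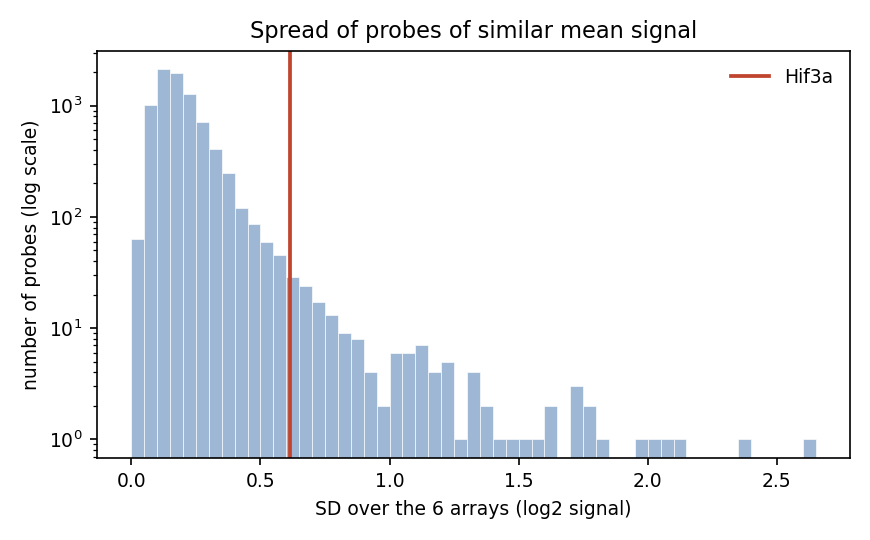
Number of tested probes (vertical axis, log scale) by their SD over the 6 arrays (horizontal axis, log2 signal), for the 8297 probes whose mean signal lay within 0.5 of that of Hif3a. The red line marks Hif3a at 0.62, far to the right of the median of 0.17. Its choice from a list drawn up on these arrays favours such a place.

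The study asked which hippocampal transcripts differed after DMDD treatment. For Hif3a as labelled, the log2 difference, db/db-DMDD minus db/db-vehicle, was -0.20 with a standard error of 0.44 from the limma fit over all tested probes, a signal 1.15-fold lower. Across the array, 622 of the 67732 probes (0.918%) differed by at least 0.5 on the log2 scale with an unadjusted p under 0.05, of which 361 (0.533%) were lower, and 1 probe had an adjusted p under 0.05 by limma with Benjamini-Hochberg adjustment. Each single array moved the Hif3a difference: it became -0.60 once db/db-DMDD 1 was left out and -0.57 once db/db-vehicle 3 was, and it was -0.019 with db/db-vehicle 1 left out, -0.016 with db/db-vehicle 2 left out and -0.091 with db/db-DMDD 2 left out. Without db/db-DMDD 3 its sign turned, to 0.081.

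The arrays were hybridized on 2 slides, which overlapped in part with the groups. The first slide held all 3 vehicle arrays together with db/db-DMDD 1, and the other held db/db-DMDD 2 and 3 alone. On the first slide Hif3a was at 6.48, 6.49 and 5.37 in the vehicle arrays and 6.70 in db/db-DMDD 1, so that the difference within that slide was 0.59 (standard error 0.48), with DMDD higher. That value sets 1 array against 3. The second slide held no vehicle array, and both of its arrays, at 5.68 and 5.34, were low in Hif3a. The low array db/db-vehicle 3 was on the first slide, so low Hif3a was found on both slides and high Hif3a on the first only. Whether the slide had a part in the level was not tested.

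In the comparison behind the study's list of changed probes, the arrays db/db-vehicle 3 and db/db-DMDD 1 appear to have stood in each other's group. The fold changes of that list were not used, but the log2 differences of its probes were computed here under both groupings. Every listed probe had a difference of larger absolute size with these 2 arrays exchanged than as labelled. The share of all tested probes for which this held was not counted, and no other 2 arrays were exchanged for comparison. The difference was -0.99 against -0.16 for Plin4 and -0.58 against 0.0071 for Cd3g. For other listed probes it changed little, with -0.69 against -0.62 for NONMMUG028649 and -0.55 against -0.48 for Mucl1. These values concern the grouping that the list follows. Which assignment follows the mice is not known from the array data. These 2 arrays are the ones at which Hif3a departs from the other members of its labelled group. On the first slide, db/db-DMDD 1 was hybridized at position 3 and db/db-vehicle 3 at position 4. With their labels exchanged, Hif3a was at 6.56 ± 0.13 (SD, n = 3) in the vehicle group and 5.47 ± 0.19 (SD, n = 3) in the DMDD group. The log2 difference was then -1.09 with a standard error of 0.13, a signal 2.13-fold lower. All 3 arrays of the DMDD group were below all 3 of the vehicle group. The slides overlapped with this grouping too, since both arrays of the second slide stayed in the DMDD group. No slide block was fitted for the exchanged labels. In that grouping 922 probes (1.36%) passed the thresholds above, and 0 had an adjusted p under 0.05 by limma, with 3184 at an unadjusted p under 0.05. Because Hif3a was taken from the study's list, which was drawn up on these arrays, the separation is given as a description and not as evidence.

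**Figure D4:**
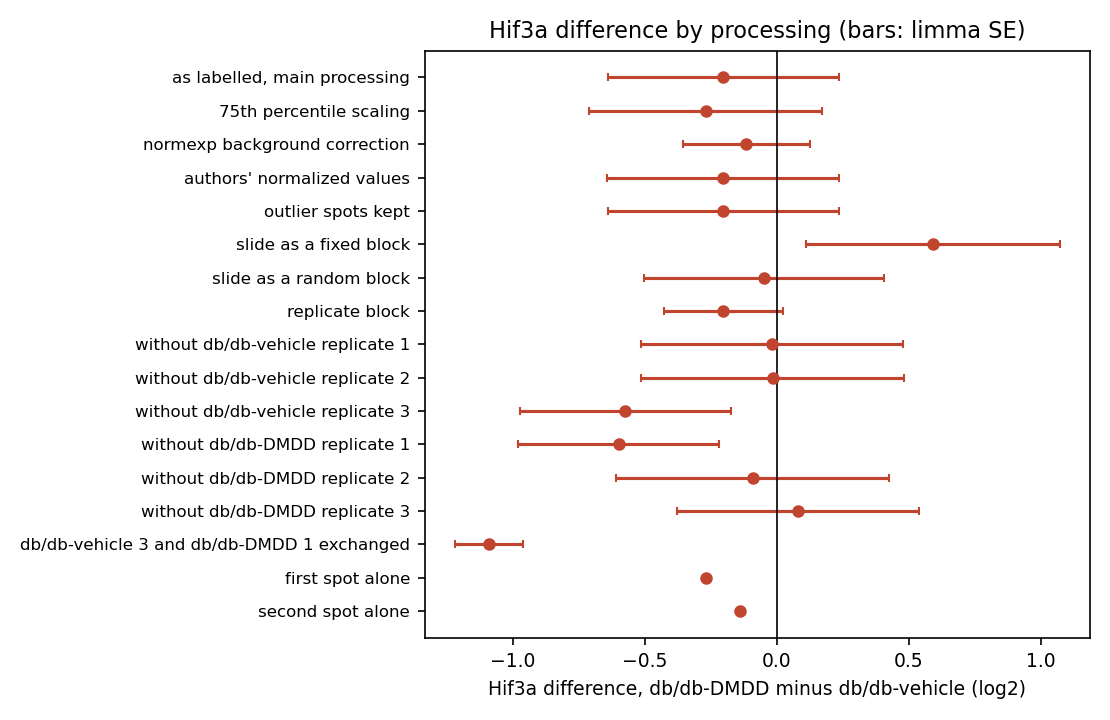
Hif3a difference between groups (horizontal axis, log2, db/db-DMDD minus db/db-vehicle) under each processing alternative, with the standard error from limma as bars; the single-spot values have none. Most points lie left of 0 and within 1 standard error of it, slide as a fixed block lies at 0.59, and the exchanged labels lie at -1.09.

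Among the listed mRNA probes whose SD was at least 0.5 times that of Hif3a, Plin4, the gene of a perilipin that coats lipid droplets, was most like Hif3a, with a Pearson r of 0.95 between their log2 signals over the 6 arrays. Plin4 was at 8.85, 9.37 and 7.95 in the vehicle arrays and at 9.20, 8.34 and 8.16 in the DMDD arrays, each in the order of replicates 1, 2 and 3. Its high arrays were therefore the high arrays of Hif3a, and its labelled groups overlapped as well. Map3k6, a kinase at the head of mitogen-activated protein kinase cascades, followed Hif3a with a Pearson r of 0.93 for 1 of its probes and 0.86 for the other. At the first of these probes Map3k6 was at 5.06, 5.08 and 4.22 in the vehicle arrays and 4.91, 4.11 and 4.16 in the DMDD arrays.

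**Figure D5:**
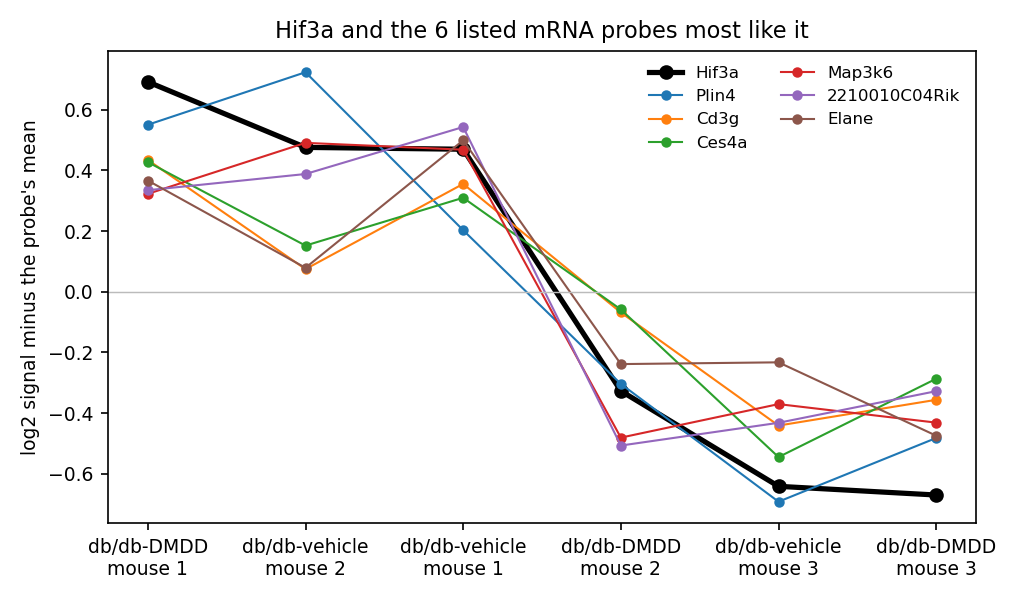
Log2 signal minus the mean of each probe (vertical axis) on the 6 arrays, ordered by Hif3a from high to low, for Hif3a (black) and the 6 listed mRNA probes with the highest Pearson r to it. Every line is above 0 on db/db-DMDD 1, db/db-vehicle 2 and db/db-vehicle 1 and below 0 on the other arrays.

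The other mRNA probes most like Hif3a were those of Cd3g (r of 0.95), a chain of the T cell receptor complex, Ces4a (0.94), a carboxylesterase, 2210010C04Rik (0.92) and Elane (0.91), the elastase of neutrophils. As labelled, the log2 differences of these probes ran from -0.33 for 2210010C04Rik to 0.055 for Ces4a, against -0.20 for Hif3a. Their standard errors were 0.27 to 0.32, so that none of these differences was much larger than its error. Among all listed genes whose SD was at least 0.5 times that of Hif3a, the 6 most like it were lncRNAs, led by NONMMUG039144 (r of 0.99), which was at 8.75, 8.69 and 7.94 in the vehicle arrays and 8.74, 8.19 and 7.97 in the DMDD arrays. The others were NONMMUG021602, ENSMUSG00000087922, NONMMUG019318, NONMMUG025836 and NONMMUG027709, with r from 0.97 to 0.99, and NONMMUG021602 was well above background on 3 of the 6 arrays only.

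Over the whole array, 361 of the 67731 other tested probes (0.533%) had an r above 0.9 with Hif3a, as had 6 of the 34 other listed mRNA probes and 20 of the 120 listed lncRNA probes. An r under -0.9 was found for 393 of all other tested probes, 1 of the listed mRNA probes and 29 of the listed lncRNA probes. The list was chosen on these arrays, so the larger share in it is not independent evidence, and a correlation over 6 arrays that share their RNA extracts and hybridizations is a description only. Of the 34 mRNA probes, 22 had a positive r with Hif3a and 12 a negative one, and for the same number of 22 the signals of db/db-vehicle 1, db/db-vehicle 2 and db/db-DMDD 1 all exceeded those of the other arrays, as they did for 4.44% of all tested probes. Among the listed mRNA probes, the one running most against Hif3a was that of Dppa5a, a gene of pluripotent cells, with a Pearson r of -0.94. Dppa5a was at 4.74, 5.16 and 6.10 in the vehicle arrays and 4.79, 5.35 and 6.02 in the DMDD arrays. The other mRNAs that the study took as candidates had lower likeness, with r of 0.88 for Timp1, an inhibitor of metalloproteinases, 0.82 for the metallopeptidase Mmp8, and 0.85 and 0.78 for the Fam187b probes.

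Genes around Hif3a in its pathway could not be described, since a probe has a gene name here only where the study's list gives one. Of 13 genes of the HIF pathway, Hif1a, Epas1, Arnt and Vhl among them, 0 had a named probe, nor had any of 19 known hypoxia targets or 15 genes of apoptosis. Of 17 genes known to respond to glucocorticoid hormones, 2 had named probes, Plin4 and Map3k6, with 3 probes between them. As labelled, 0 of these 3 probes passed the thresholds that 0.918% of all tested probes passed, and with the labels of the 2 arrays exchanged all 3 did, where 1.36% of all tested probes passed. As members of the study's list, these genes are no independent evidence. The second Map3k6 probe had a log2 difference of -0.085 (standard error 0.25) as labelled, against -0.39 (standard error 0.31) at the first.

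Blood cell markers are given here beside Hif3a. Of 12 blood markers, 4 had a named probe: Elane, Mmp8 and Retnlg of neutrophils and Cd3g of T cells. Each of the 4 was higher in db/db-vehicle 1, db/db-vehicle 2 and db/db-DMDD 1 than in every other array, with r from 0.82 to 0.95 to Hif3a. That order was shared by 4.44% of all tested probes and by 22 of the 34 other listed mRNA probes, from which these markers come. The summed signal of the 4 probes, on the linear normalized scale, was 226 to 337 in db/db-vehicle and 162 to 327 in db/db-DMDD. None of the 4 was at 0. Retnlg, a resistin-like secreted protein, was at 7.96, 8.02 and 7.46 in the vehicle arrays and 7.90, 6.84 and 6.91 in the DMDD arrays. The other 8 markers, those of red cells among them, had no named probe, and the 4 that had one are on the study's list, so their part in the Hif3a signal was not tested. The labelled tissue could not be checked against neuronal or glial markers for the same reason.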

How the data were processed

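Hippocampal RNA of 6 mice, 3 in each group, was hybridized to 1-colour Cy3 arrays. The scanner output was deposited, whose spot intensity had been background-subtracted and detrended by Feature Extraction 12.0.3.1 per the file headers (10.7 in the submitters' processing notes) and not normalized between arrays. They also deposited a table of log2 values, quantile-normalized, whose medians were 5.74 on each array. Its log scale was inferred by setting it against the scanner signals. How spots were averaged is not given in the sources used here. The fold changes and p-values in the study's supplementary list were not used; it served for gene names and types only.

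Log2 processed intensities, without control and outlier spots, were quantile-normalized and averaged per probe (limma 3.58.1, R 4.3.3). Probes that 3 or more of 6 arrays marked as well above background were fitted with lmFit and eBayes by label, with Benjamini-Hochberg adjustment. The correlation between any 2 arrays was 0.989 to 0.996 over tested probes, 72.1% to 78.6% of probes were well above background. With 3 arrays a group, precision is low. The step was tested on simulated data. Python 3.11.15, numpy 2.4.6 and pandas 2.3.3 were used for likeness and matplotlib 3.10.9 for plots.

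Alternatives were 75th percentile scaling, normexp correction of the raw brightness (offset 50), the authors' values, other filters, outliers kept, and slide and replicate blocks. Further ones were each array left out, single spots, exchanged labels, and a Student's t-test with equal variances for the count of probes. The gene, the lists and the tests were chosen with earlier results of these data known. The genes named are Hif3a, list members with a named probe, and the 6 genes most like Hif3a by Pearson r with an SD of at least 0.5 times its own, among all listed genes and among mRNAs; Dppa5a, Timp1 and Fam187b were added after their values were seen.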

Additional observations from a re-analysis of the deposited data

How the results depend on the processing

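The labelled Hif3a difference of -0.20 moved by less than the pooled SD within groups (0.68) under 14 of 16 alternatives. That SD is larger than the difference itself, so even a change of sign can count as no move, and the count does not show stability. The difference was 0.59 with slide as a fixed block and -1.09 once db/db-vehicle 3 and db/db-DMDD 1 traded labels. Leaving out single arrays gave -0.60 to 0.081, all counted as no move. With the replicate number as a block it stayed at -0.20 (standard error 0.23), and same-numbered arrays had correlations of deviations from -0.25 to -0.036, so the numbers were not taken to pair the mice. The exchanged difference of -1.09 became -0.60 after normexp correction, which took raw spot brightness and local background and added an offset of 50. The part of each in the smaller difference was not tested. With each array left out, the exchanged difference ran from -1.20 to -1.02. These settings for the exchanged labels were added after seeing the data. The 622 probes past the thresholds (0.918% of 67732 tested) became 21 (0.031%) after normexp correction and 1154 (1.70%) with slide as a fixed block. Other filters changed the number tested as well. Without a filter 1440 of 90749 (1.59%) passed, and with signal well above background on all 6 arrays 318 of 62656 (0.508%). A Student's t-test with equal variances gave 240 (0.354%), with 2044 at an unadjusted p under 0.05 and 0 after Benjamini-Hochberg adjustment. With single arrays left out, the count ran from 525 (0.775%, without db/db-DMDD 3) to 2145 (3.17%, without db/db-DMDD 1). It was 1917 (2.83%) when db/db-vehicle 2 and 942 (1.39%) when db/db-DMDD 2 was left out. The replicate block gave 770 (1.14%). By 75th percentile scaling 78 were higher and 849 lower, against 261 and 361. The causes were not tested. Of the 3 probes of Plin4 and Map3k6, 0 passed as labelled, 3 with the labels exchanged (1.36% of all tested probes), and 0 to 1 with each array left out (0.775% to 3.17% of all), the 1 without db/db-vehicle 3 (0.974% of all). The lists of HIF pathway, hypoxia and apoptosis genes were not run under any alternative, having no named probe.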
